A study of Mus musculus with 6 samples.

Results

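The genes of the major histocompatibility complex (MHC) and of antigen presentation were examined in RNA-seq of submandibular glands (SMGs) from female mice. They were chosen by gene name, as rows of the filtered count table whose symbol starts with H2- (27 rows) plus 12 genes named singly. This gave 39 of the 17527 rows in that table. A row is in that table if its raw count exceeds 5 somewhere among the libraries, and the choice was made when differences of these genes between the same libraries were already known, so the comparisons below describe the genes and are not independent support for a change. The series compares 3 libraries labelled wildtype (WT 1, 4 and 5) with 3 labelled as double knockout (DKO 1, 4 and 5) for Hs3st3a1 and Hs3st3b1, enzymes that add 3-O-sulfate groups to heparan sulfate. By the methods of the study, DKO mice carry a short frameshift deletion in the coding sequence of Hs3st3a1, made by a zinc finger nuclease, together with a LacZ cassette at Hs3st3b1 on the same chromosome, come from several founders on a C57BL/6 background, and were compared with WT littermates of heterozygous intercrosses. The deletion is constitutional and not limited to a cell type. The study describes the glands as adult. The labels give neither the age of the mice nor the founder line behind each library, and name no treatment.

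Total counts ranged from 23674258 to 29611975 per library. Raw counts of the targeted gene Hs3st3b1, in the order 1, 4 and 5, were 173, 203 and 261 in WT and 255, 120 and 189 in DKO, and those of Hs3st3a1 were 15, 11 and 15 in WT and 11, 8 and 13 in DKO. The groups overlapped at both genes (DESeq2 adjusted p = 0.976 and 0.947). By qPCR the study found neither gene expressed in adult DKO SMGs of either sex, which these counts did not show. The reason was not tested. The counts of these genes thus did not by themselves bear out the labels. They cannot refute them either, because counts per gene do not show where in a gene the reads fall. WT and DKO below mean the libraries so labelled. Gland genes were abundant in all libraries. Klk1, a kallikrein of salivary ducts, had 127764 to 235348 normalized counts, whereas the salivary gland gene Smr3a reached 2535 in WT 5 and at most 3.46 in the other libraries. Of 9 gland epithelium markers tested, 2 fell, Acta2 of myoepithelial cells at -0.74 ± 0.12 (SE, adjusted p = 1.49e-07) and Krt14 of basal and myoepithelial cells at -0.56 ± 0.15 (SE, adjusted p = 0.0113), and 1 rose, the acinar water channel gene Aqp5 at 0.54 ± 0.15 (SE, adjusted p = 0.0165). With a library left out in turn, Acta2 was called in 6 of the 6 fits, Aqp5 in 2 and Krt14 in 1, and edgeR and limma-voom called 0 of the 9. Of the 43 H2- rows in the unfiltered table, 16 lay outside the filter and 10 of those had 0 counts in all 6 libraries. Just outside the filter were H2-Ke6, with raw counts of 2, 3 and 1 in WT and 5, 4 and 4 in DKO, and H2-T3, with 5, 1 and 0 in WT and 0 in each DKO library. Just inside was H2-Bl, with 7, 2 and 5 in WT and 0, 0 and 4 in DKO, which passed only through WT 1.

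MHC class I molecules are made of a heavy chain and the light chain beta-2-microglobulin, and show peptides from the cytosol to CD8+ T cells on almost all nucleated cells. Class Ia heavy chains are highly polymorphic, class Ib heavy chains are less so and often have specialised ligands. Class II molecules pair an alpha with a beta chain, carry peptides from endosomes to CD4+ T cells and are made mainly by dendritic cells, macrophages and B cells, although epithelium can make them under interferon-gamma. Transcription of class I genes is driven by NLRC5 and of class II genes by CIITA. The MHC of the mouse lies on chromosome 17, and inbred strains carry different versions of it, called haplotypes, that differ in sequence and in which class Ib genes are present.

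Most MHC and antigen presentation genes had lower estimates in DKO than in WT SMGs, but a minority of them passed the test by DESeq2 and none by edgeR or limma-voom. Values below are raw counts divided by DESeq2 size factors (normalized counts), listed for libraries 1, 4 and 5 of each group. Log2 fold changes are DKO over WT, and adjusted p-values are from the DESeq2 Wald test, with 0.05 as the threshold. The adjustment covered those of the 18606 rows tested that passed DESeq2's default filters. Of the 39 genes, 37 had a negative log2 fold change (38 with total counts as size factors), 14 (35.9%) fell past the threshold and 0 rose, where 350 of all rows (1.88%) fell. All 3 DKO libraries lay below all 3 WT libraries for 22 genes (56.4%), against 1954 of all rows (10.502%). The median log2 fold change was -1.35 over the genes and 0.00 over all rows. These counts include 6 genes with at most 5 raw counts in every DKO library (Gm8909, Gm10499, H2-Q10, H2-M2, H2-Bl and H2-Eb2), which entered the table only through WT and had to be lower in DKO, and 2 of them, Gm8909 and Gm10499, are among the 14.

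The calls depended on the tool and on single libraries. edgeR's quasi-likelihood test and limma-voom called 0 of the 39 genes, with lowest adjusted p-values of 0.105 and 0.121, and called 10 and 7 genes in the whole table. At an unadjusted p under 0.05, 29 of the 39 genes were lower by DESeq2 and 31 by edgeR, where 7.26% and 8.67% of all 18606 rows were. WT 1 was the highest WT library for 34 genes and WT 4 the lowest for 37, so the WT libraries were themselves ordered alike across these genes. With each library left out in turn, 1 gene fell without DKO 4, 5 without WT 1, 6 without WT 5, 9 without DKO 5, 11 without DKO 1 and 24 without WT 4. The number called in the whole table changed between these fits too, with its range given at the end. No share of all rows is set beside each count, so the counts do not show whether a change is particular to these genes. The same holds for such counts of other lists below. None of the 14 genes kept its call in all 6 of these fits.

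**Figure D1:**
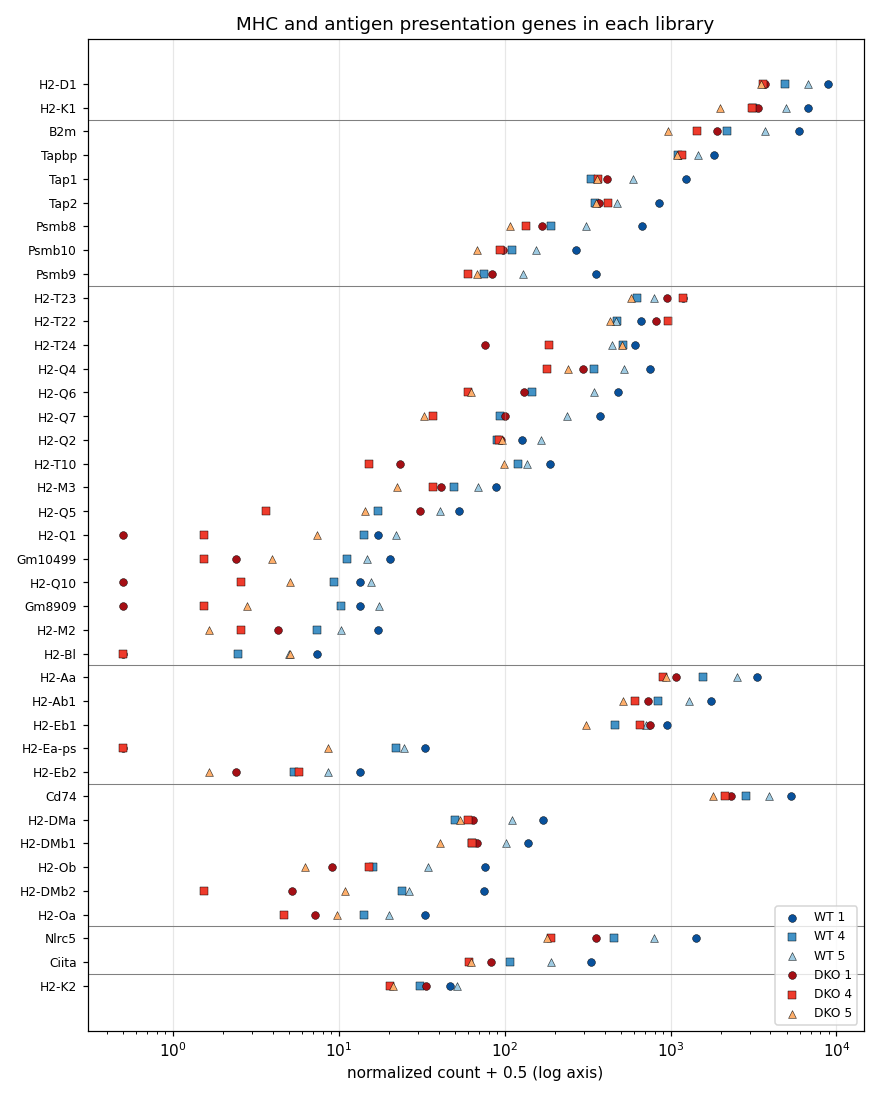
Normalized count plus 0.5 (log axis) of each of the 39 genes in each library, with WT libraries in blue and DKO libraries in red and orange, and horizontal lines between gene classes. WT 1 is the highest WT library for 34 genes and WT 4 the lowest for 37, and DKO 1 and DKO 4 lie far from DKO 5 at H2-T24 and H2-T10.

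**Figure D2:**
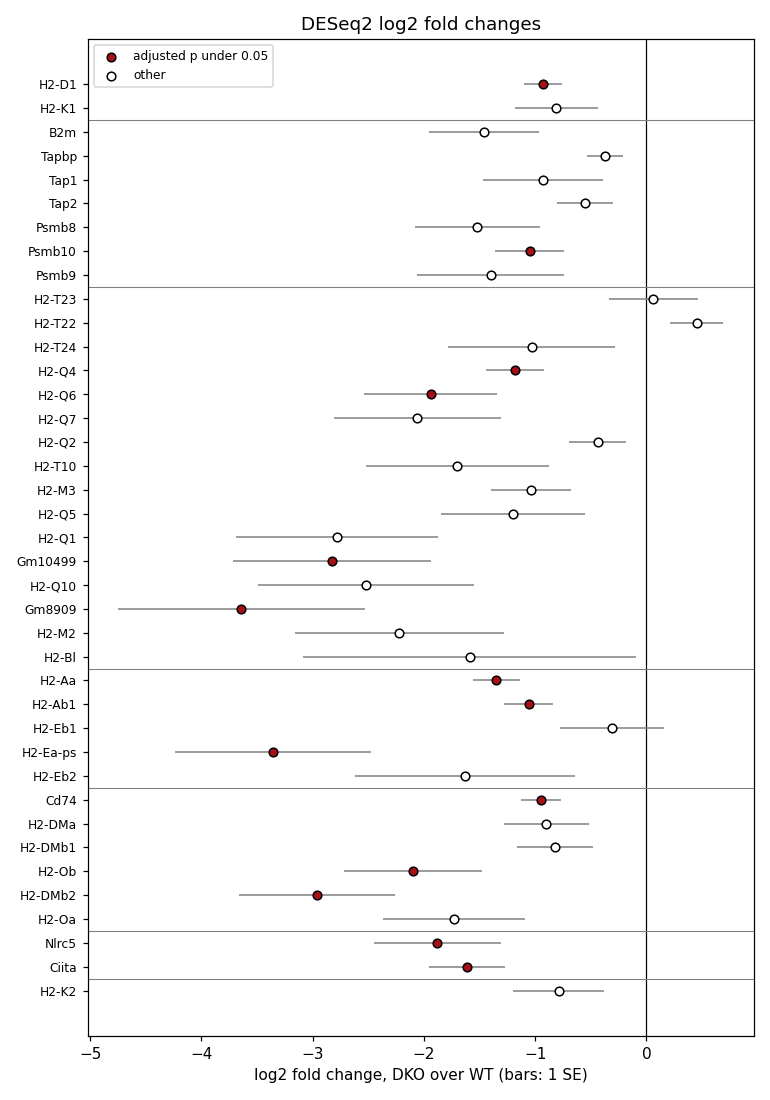
DESeq2 log2 fold change of DKO over WT for the 39 genes (points) with 1 SE (bars), in the same order. Filled points mark the 14 genes with an adjusted p under 0.05, all of them negative, and H2-T22 and H2-T23 are the genes above 0, of which H2-T23 is below 0 with total counts as size factors.

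Among class Ia heavy chains, which present most peptides to CD8+ T cells, H2-D1 (chr17:35262730-35267499, GENCODE M21 on GRCm38, as for all gene spans here) fell. Its normalized counts were 8918, 4863 and 6729 in WT and 3683, 3593 and 3522 in DKO, so the groups did not overlap and the DKO libraries were close to each other. The log2 fold change was -0.93 ± 0.17 (SE, adjusted p = 2.48e-05), with an adjusted p of 0.134 without DKO 4. H2-K1 (chr17:33996017-34000347) had 6714, 3119 and 4962 in WT and 3361, 3081 and 1982 in DKO. DKO 1 lay above WT 4 at this gene, and the log2 fold change was -0.81 ± 0.37 (SE, adjusted p = 0.272), with an adjusted p of 0.000222 without WT 4. The summed normalized counts of both genes were 11769 ± 3826 in WT and 6408 ± 804 in DKO (SD, n = 3 each). H2-K2, which GENCODE calls a transcribed pseudogene of class I and which was therefore counted apart, had 30.3 to 51.1 in WT and 19.9 to 33.2 in DKO.

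B2m (chr2:122147686-122153083), the light chain of all classical class I molecules, had 5966, 2184 and 3731 in WT and 1915, 1438 and 959 in DKO. Every DKO library was below every WT library, yet DKO 1 at 1915 was near WT 4 at 2184. The log2 fold change of -1.46 ± 0.49 (SE, adjusted p = 0.0642) did not pass the threshold in the whole set, but did without DKO 1 (adjusted p = 0.0445) or WT 4 (adjusted p = 0.00292). Per kilobase of exon, B2m was the highest of the 39 genes, with 4605 ± 2211 normalized counts per kb in WT (SD, n = 3), above H2-D1 with 2651 ± 787, Cd74 with 2396 ± 736 and H2-K1 with 1679 ± 612, although the SDs of neighbours in this order overlapped.

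The proximal promoters of 4 genes are shown because they carry elements known to bind MHC regulators and because 2 of the genes fell, 1 missed the threshold in the same direction and 1 had a positive log2 fold change. Each is the 210 bases before the RefSeq start (GRCm38.p6), written 5′ to 3′ on the gene's strand, and capitals mark, on either strand, the interferon-stimulated response element core GAAANNGAA, the CCAAT box CCAAT and the cyclic AMP response element core TGACG. B2m is at chr2:122147477-122147686 (plus strand), H2-D1 at chr17:35262884-35263093 (plus strand, inside the longer GENCODE span of that gene), H2-Aa at chr17:34287824-34288033 (minus strand) and H2-T22 at chr17:36042743-36042952 (minus strand).
B2m: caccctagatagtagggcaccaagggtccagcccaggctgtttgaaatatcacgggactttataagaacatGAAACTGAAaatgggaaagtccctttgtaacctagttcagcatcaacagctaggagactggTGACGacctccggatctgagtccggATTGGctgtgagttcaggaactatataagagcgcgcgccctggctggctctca
H2-D1: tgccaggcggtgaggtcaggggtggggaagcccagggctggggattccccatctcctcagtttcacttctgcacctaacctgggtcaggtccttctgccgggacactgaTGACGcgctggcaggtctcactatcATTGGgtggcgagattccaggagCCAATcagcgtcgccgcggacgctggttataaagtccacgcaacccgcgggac
H2-Aa: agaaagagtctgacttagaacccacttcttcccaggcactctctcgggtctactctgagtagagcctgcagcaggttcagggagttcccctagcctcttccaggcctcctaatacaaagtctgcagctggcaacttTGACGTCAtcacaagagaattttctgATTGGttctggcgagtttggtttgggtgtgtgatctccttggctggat
H2-T22: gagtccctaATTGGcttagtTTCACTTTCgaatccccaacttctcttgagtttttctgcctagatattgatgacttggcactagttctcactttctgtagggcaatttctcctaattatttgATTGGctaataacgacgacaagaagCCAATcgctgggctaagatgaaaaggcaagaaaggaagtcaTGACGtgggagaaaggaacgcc
In H2-Aa the CRE core occurs on both strands of 1 palindrome, which is the shared run of capitals. Promoters of 27 of the 39 genes were matched by symbol in RefSeq, and Ciita, Nlrc5, H2-Ab1 and H2-T24 were among those not matched. In windows from 250 bases before to 50 after the start, the CCAAT box was found on either strand in 23 of the 27 (85.2%) against 38.0% of 27025 promoters, and the CRE core in 11 (40.7%) against 20.9%. The response element core was found in 3 (11.1%), those of B2m, H2-T22 and H2-T23, against 8.58% of all. Many of these promoters are related copies, and Tap1 and Psmb9 share a promoter region, so they are not independent. A match of letters is a description and no evidence of a bound site. Only exact letters were counted. A promoter without a match, such as that of H2-D1 for the response element core, may still hold a variant of the element.

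Of the genes that cut and load class I peptides, Psmb10, an interferon-inducible subunit of the immunoproteasome, was the one that fell. Psmb10 had 269, 109.6 and 155 in WT and 96.8, 93 and 68 in DKO, with no overlap and a log2 fold change of -1.05 ± 0.31 (SE, adjusted p = 0.0312). The call was lost without WT 1 (adjusted p = 0.505), DKO 5 (0.3), DKO 4 (0.165), WT 5 (0.157) or DKO 1 (0.0663).

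The other immunoproteasome subunits lie beside the peptide transporter genes in the class II region. Psmb8 had 672, 191 and 308 in WT and 167, 135 and 107 in DKO, without overlap, at -1.52 ± 0.56 (SE, adjusted p = 0.119). Psmb9 had 354, 74.3 and 128 in WT and 83.5, 59.6 and 68 in DKO, at -1.40 ± 0.66 (SE, adjusted p = 0.304). DKO 1 exceeded WT 4 at Psmb9, while WT 1 held the highest value at both subunits.

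TAP1 and TAP2 form the transporter that moves peptides into the endoplasmic reticulum. Tap1 had 1243, 333 and 590.2 in WT and 413, 363 and 362 in DKO, at -0.93 ± 0.54 (SE, adjusted p = 0.479). Tap2 had 853, 352 and 476 in WT and 372, 421 and 355 in DKO, at -0.55 ± 0.25 (SE, adjusted p = 0.272). At both, all DKO libraries were above WT 4 and below WT 5, and WT 1 stood highest. Without WT 1 the log2 fold change of Tap1 was -0.28 (adjusted p = 0.869) and that of Psmb9 -0.53 (0.752). Exons of Tap1 and Psmb9 overlap on opposite strands, and the reads carry no strand, so part of their reads cannot be told apart.

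Tapbp, which bridges the transporter and empty class I molecules, had 1822, 1114 and 1467 in WT and 1143, 1173 and 1087 in DKO, at -0.37 ± 0.16 (SE, adjusted p = 0.221), the smallest difference of the 7 genes in this group. All 7 genes were past the threshold without WT 4, with adjusted p-values of 4.62e-06 for Psmb8, 0.000327 for Tap1, 0.000866 for Psmb9, 0.00437 for Tapbp and 0.0275 for Tap2. Of the 7, 1 was past it without DKO 1 and 0 without DKO 4, DKO 5, WT 1 or WT 5. The median log2 fold change of the group was -1.05, and -0.53 without WT 1. Its summed counts of 4358 to 11179 in WT and 3007 to 4190 in DKO did not overlap.

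The rest of the peptide supply machinery gave a different picture. Of 18 further genes, including the chaperones of peptide loading, constitutive proteasome subunits and endosomal proteases, 0 passed the threshold in either direction by DESeq2, and their median log2 fold change was 0.07. At an unadjusted p under 0.05, 4 were lower and 2 higher. Hspa5, an endoplasmic reticulum chaperone with the highest normalized count in this list, had 8698, 7723 and 7298 in WT and 7883, 11359 and 8086 in DKO, at 0.20 ± 0.14 (SE, adjusted p = 0.607). Without WT 4, 3 of the 18 fell, and without DKO 1, 2 rose.

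Class Ib heavy chains were the most varied class. Of 16, 14 had a negative log2 fold change, 4 fell and 0 rose, and the values ran from -3.64 to 0.45 with a median of -1.65. These values include Gm8909, Gm10499, H2-Q10, H2-M2 and H2-Bl, which entered the table only through WT and had to be lower in DKO. Gm8909 and Gm10499 are among the 4, and Gm8909 gave the value of -3.64, so the range and median are partly set by the choice of rows. Summed over the class, normalized counts were 3483 ± 1057 in WT and 2476 ± 338 in DKO (SD, n = 3), and DKO 1 and DKO 4 were inside the WT range of 2532 to 4620. Left out singly, WT 1 or WT 5 reduced the 4 calls to 1, DKO 4 to 0, and WT 4 raised them to 6. Several of these genes are near-identical copies, and the share of 50-base stretches of their transcripts that occur in no other gene is given beside each where it is under 80%.

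The H2-Q genes encode heavy chains of the Qa group, and Q6 and Q7 encode Qa-2 antigens. H2-Q4 (chr17:35379617-35385290, 63.6% unique stretches) had 753, 343 and 521 in WT and 296, 179.8 and 239.8 in DKO and fell, with a log2 fold change of -1.18 ± 0.26 (SE, adjusted p = 7.50e-04). H2-Q6 (65.0% unique) had 483, 146 and 346 in WT and 131, 59.6 and 62.3 in DKO and fell, with a log2 fold change of -1.94 ± 0.60 (SE, adjusted p = 0.0418). Neither gene's groups overlapped, and DKO 1 was the highest DKO library at both. The call of H2-Q4 was lost without WT 1 (adjusted p = 0.0831) or DKO 4 (0.0592), and that of H2-Q6 without WT 5 (0.326), DKO 5 (0.3) or DKO 4 (0.262).

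H2-Q7 (73.6% unique) had 377, 92.9 and 236 in WT and 101, 36.6 and 32.3 in DKO, at -2.06 ± 0.75 (SE, adjusted p = 0.11). DKO 1 was just above WT 4 at this gene, and it passed the threshold without DKO 1 (adjusted p = 0.007) or WT 4 (0.0161). H2-Q2 had 127, 90.0 and 165 in WT and 93.9, 92 and 95.7 in DKO, at -0.44 ± 0.26 (SE, adjusted p = 0.482), with DKO libraries within 4 counts of each other and above WT 4.

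The H2-T genes lie farther along the chromosome and here the DKO libraries parted from each other. H2-T24 (chr17:36005695-36020560) had 606, 518 and 442 in WT and 75.9, 184 and 508 in DKO. DKO 5 was inside the WT range, whereas DKO 1 and DKO 4 were below all other libraries. The log2 fold change over all libraries was -1.03 ± 0.75 (SE, adjusted p = 0.631), and without DKO 5 it was -2.01 (adjusted p = 2.49e-07).

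H2-T10 (chr17:36115876-36121465, 49.6% unique), a polymorphic pseudogene in GENCODE, is a close relative of H2-T22, and the products of both are known as ligands of some gamma delta T cell receptors. Its counts were 187, 120.3 and 136 in WT and 22.8, 14.6 and 99.2 in DKO. DKO 5 was below the lowest WT library but several times above DKO 1 and DKO 4, with -1.70 ± 0.82 (SE, adjusted p = 0.316) over all libraries and -2.97 without DKO 5 (adjusted p = 6.55e-12).

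H2-T22 (chr17:36037128-36042747, 46.5% unique) went the other way, with 666, 477 and 470.2 in WT and 814, 961 and 430.1 in DKO. DKO 1 and DKO 4 were above all WT libraries and DKO 5 below them. The log2 fold change of 0.45 ± 0.24 (SE, adjusted p = 0.397) became 0.72 without DKO 5 (adjusted p = 0.0244), the single positive call among the 39 genes in the fits that left out a library. H2-T23 (chr17:36029773-36032855), which encodes Qa-1, a ligand of CD94/NKG2 receptors, had 1195, 626 and 789 in WT and 956, 1184 and 575 in DKO, at 0.06 ± 0.40 (SE, adjusted p = 0.982), a value that changed sign without DKO 4 (-0.18), WT 4 (-0.13) or WT 5 (-0.01) and with total counts as size factors (-0.20).

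Ratios within a library do not depend on the size factors. The pairs of genes were chosen after their values were seen, so no test is given. The raw counts of H2-T24 per count of H2-T22 were 0.909, 1.09 and 0.941 in WT, 0.0932 and 0.192 in DKO 1 and DKO 4, and 1.18 in DKO 5. H2-T10 per count of H2-T22 gave 0.281, 0.252 and 0.290 in WT, 0.0280 and 0.0152 in DKO 1 and DKO 4, and 0.231 in DKO 5. At both ratios DKO 5 lay near the WT libraries. H2-K1 per count of H2-D1 gave 0.753, 0.642 and 0.737 in WT and 0.913, 0.858 and 0.563 in DKO, with DKO 5 below all others. H2-T23 per count of H2-T22 gave 1.795, 1.311 and 1.678 in WT and 1.175, 1.233 and 1.338 in DKO. Psmb9 per count of Tap1 gave 0.285, 0.2235 and 0.217 in WT and 0.2023, 0.1643 and 0.1879 in DKO. H2-T10 overlaps BC023719 and H2-T22 overlaps A930015D03Rik on the opposite strand, and the 2 H2-T genes share much of their sequence, while H2-T24 has 96.8% unique stretches and no such overlap. Counts per symbol carry no alleles, and whether DKO 1 and DKO 4 carry another haplotype at this locus than DKO 5 was not tested.

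**Figure D3:**
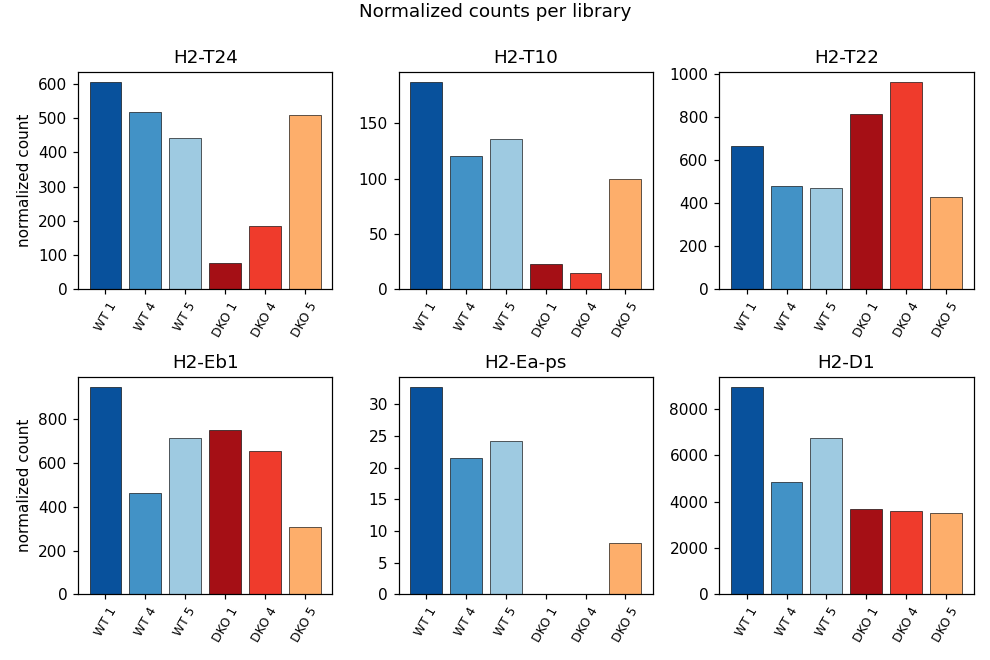
Normalized counts (bars, linear axes starting at 0) of 6 genes in each library. H2-T24, H2-T10 and H2-Ea-ps are lowest in DKO 1 and DKO 4, H2-T22 is highest there, H2-Eb1 is lowest in DKO 5, and H2-D1 is alike in the DKO libraries.

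H2-M3 (chr17:37270220-37274484), which presents N-formylated peptides of bacteria and mitochondria, had 88.1, 48.9 and 69 in WT and 40.8, 36.6 and 21.9 in DKO. Its groups did not overlap, and the log2 fold change was -1.04 ± 0.36 (SE, adjusted p = 0.0847), past the threshold without WT 4 (adjusted p = 0.037). Gm8909 (73.6% unique) and Gm10499, class I-like genes of the H2-T region, were rare transcripts that fell. Raw counts of Gm8909 were 13, 10 and 19 in WT and 0, 1 and 2 in DKO, and those of Gm10499 were 20, 11 and 16 in WT and 2, 1 and 3 in DKO. Both passed the filter only through WT, so their direction was set by the choice of rows. The adjusted p-values of 0.0375 and 0.0452 were under the threshold in the whole set and without WT 4. Gm8909 had 0.184 without WT 1, 0.145 without DKO 5, 0.101 without DKO 1 and no adjusted p without WT 5 or DKO 4, and Gm10499 had 0.361 without WT 1, 0.228 without WT 5, 0.118 without DKO 5, 0.0988 without DKO 1 and none without DKO 4.

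Unstranded reads cannot be told apart from those of an overlapping gene on the other strand for H2-Q4 (Gm11131), Gm8909 (Gm20478) and Gm10499 (2410017I17Rik) either. The rest of the class, H2-Q1, H2-Q5, H2-Q10, H2-M2 and H2-Bl, had means under 50 normalized counts and no call, and 63.6% of the stretches of H2-Q5 were unique. H2-Q1 had 55 counts in WT and 7 in DKO in sum, a ratio of 0.139 (exact 95% interval 0.0535 to 0.307, counting error only). H2-Q10 had 39 and 6, and with H2-M2 and H2-Bl it passed the filter only through WT. DKO 1 held 0 counts of H2-Q1 and H2-Q10. H2-Bl had no adjusted p because of its low mean.

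Class II chains fell for H2-Aa, H2-Ab1 and H2-Ea-ps. H2-Aa (chr17:34282744-34287823), the alpha chain of I-A, had 3335, 1574 and 2506 in WT and 1072, 904 and 941 in DKO. All DKO libraries lay below WT 4, the lowest WT library, and were close to each other. H2-Aa had the smallest adjusted p of the 39 genes, at -1.35 ± 0.21 (SE, adjusted p = 5.17e-08), but 0.0701 without WT 5, 0.0622 without DKO 4 and 0.0607 without DKO 5. H2-Ab1 (chr17:34257689-34269419), its beta chain partner, had 1741, 842 and 1292 in WT and 733, 608 and 515 in DKO, again without overlap. The log2 fold change was -1.06 ± 0.22 (SE, adjusted p = 2.69e-04), and the adjusted p was 0.238 without DKO 4.

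The I-E chains did not follow I-A alike. H2-Eb1 (chr17:34305867-34316674), the beta chain of I-E, had 946, 464 and 715 in WT and 750.5, 656 and 310.1 in DKO. DKO 1 and DKO 4 lay among the WT libraries and DKO 5 below all, with a log2 fold change of -0.31 ± 0.47 (SE, adjusted p = 0.886). Raw counts of H2-Eb1 per count of H2-Ab1 were 0.544, 0.551 and 0.553 in WT, 1.02 and 1.08 in DKO 1 and DKO 4, and 0.602 in DKO 5, and those of H2-Aa per count of H2-Ab1 were 1.92, 1.87 and 1.94 in WT, 1.46 and 1.49 in DKO 1 and DKO 4, and 1.83 in DKO 5. These pairs too were chosen after their values were seen. All 3 genes have unique stretches over more than 99% of their transcripts.

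H2-Ea-ps (chr17:34341959-34344645) is the alpha chain locus of I-E, annotated as a polymorphic pseudogene since haplotype b of C57BL/6 lacks a working promoter there. It had raw counts of 33, 22 and 27 in WT and 0, 0 and 7 in DKO. DKO 1 and DKO 4 had 0 and DKO 5 had 7, and the ratio of the summed counts of DKO to WT was 0.0934 (exact 95% interval 0.0364 to 0.201, counting error only). It fell with an adjusted p of 0.0094, which without WT 5 was 0.881, without WT 1 0.847, without WT 4 0.656, without DKO 4 0.112 and without DKO 1 0.0511. H2-Eb2 had at most 12.9 normalized counts in any library and passed the filter only through WT. Summed class II chains were 4506 ± 1581 in WT and 2169 ± 391 in DKO (SD, n = 3), and the median log2 fold change was -1.35.

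In the machinery that loads class II, Cd74, the invariant chain that fills the groove until it is exchanged for peptide, fell. Cd74 had 5306, 2842 and 3922 in WT and 2317, 2118 and 1809 in DKO, without overlap, at -0.95 ± 0.18 (SE, adjusted p = 8.35e-05), and 0.182 as adjusted p without DKO 4. H2-DM, which catalyses that exchange, pairs the alpha chain H2-DMa with a beta chain, H2-DMb1 or H2-DMb2. H2-DMb2 had 74.2, 23.5 and 26 in WT and 4.74, 1.04 and 10.38 in DKO (74.1% unique stretches). It fell, with a log2 fold change of -2.96 ± 0.70 (SE, adjusted p = 0.00275), with adjusted p-values of 0.246 without WT 1 and 0.0705 without DKO 4. Its alpha chain partner H2-DMa and the alternative beta chain H2-DMb1 were not called, at -0.90 ± 0.38 (SE) and -0.82 ± 0.34 (SE) with overlapping groups, but passed without WT 4 (adjusted p = 0.00269 and 0.0312). Exons of H2-DMa overlap those of Brd2 on the opposite strand, a gene with 2044 to 2169 normalized counts over all libraries. Part of the unstranded reads there cannot be told apart. H2-DMb1 had 77.35% unique stretches.

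H2-Ob, a beta chain of H2-DO, the inhibitor of H2-DM typical of B cells, had 75.2, 15.7 and 34 in WT and 8.54, 14.6 and 5.76 in DKO. It fell, with a log2 fold change of -2.10 ± 0.62 (SE, adjusted p = 0.0296), a call present without WT 4 and lost without WT 1 (adjusted p = 0.586), DKO 5 (0.249), WT 5 (0.166), DKO 1 (0.11) or DKO 4 (0.0757). Its partner H2-Oa, without overlap and with 4.18 to 32.7 normalized counts over all libraries, was at -1.73 ± 0.64 (SE, adjusted p = 0.122). Over the 6 loading genes the median log2 fold change was -1.34.

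Both transactivators fell. Nlrc5 (chr8:94434356-94527272), on chromosome 8 outside the MHC, had 1425, 454 and 789 in WT and 355, 189 and 179.9 in DKO, at -1.88 ± 0.57 (SE, adjusted p = 0.0365). Ciita (chr16:10480059-10528418), on chromosome 16, had 330.5, 107 and 191 in WT and 82.5, 60.6 and 62.3 in DKO, at -1.61 ± 0.34 (SE, adjusted p = 5.70e-04). Neither overlapped between groups, and summed over both genes DKO held 0.282 of the WT level, the lowest share of any class. Ciita overlaps Dexi and Nlrc5 overlaps 9330175E14Rik on the opposite strand. The adjusted p of Ciita was 0.0756 without WT 1, and that of Nlrc5 was 0.265 without DKO 5, 0.238 without DKO 4, 0.237 without WT 1 and 0.206 without WT 5.

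Factors that act with the transactivators at MHC promoters were mostly not different. Of 13 further regulators, 1 fell and 0 rose, where 1.88% of all rows fell, with a median log2 fold change of -0.12. The one that fell was Irf8, an interferon regulatory factor of myeloid and B cells, with 408, 205 and 303 in WT and 196, 154 and 167 in DKO, at -0.82 ± 0.24 (SE, adjusted p = 0.0239), a call kept without DKO 1 or WT 4 and lost without WT 1 (adjusted p = 0.409), DKO 4 (0.224), WT 5 (0.218) or DKO 5 (0.199). Creb1, a factor that binds cyclic AMP response elements and the member with the highest normalized count, had 1296, 1350 and 1394 in WT and 1273, 1188 and 1170 in DKO, at -0.15 ± 0.10 (SE, adjusted p = 0.546). Rfx5, a subunit of the RFX complex that recruits CIITA, had 293, 274 and 258 in WT and 312, 256 and 247 in DKO, at -0.01 ± 0.16 (SE, adjusted p = 0.988).

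Of 9 class I-like genes outside the MHC that were tested, 1 rose and 0 fell by DESeq2, with a median log2 fold change of -0.18, and at an unadjusted p under 0.05 1 was lower and 1 higher. Azgp1, a secreted class I-like glycoprotein of glands, rose from 76.2, 115 and 129 in WT to 260.0, 328 and 279 in DKO, at 1.43 ± 0.22 (SE, adjusted p = 3.85e-08), and was called in each fit that left out a library. Mr1, which shows vitamin B metabolites to mucosal T cells, had 355, 440.2 and 271 in WT and 344, 461 and 443 in DKO, at 0.23 ± 0.19 (SE, adjusted p = 0.719). Without WT 4, 1 gene of this list fell.

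Genes of the interferon-gamma response fell in part. Of 22 tested, 9 fell and 0 rose by DESeq2, with a median log2 fold change of -1.88 (-1.19 without WT 1), while edgeR and limma-voom called 0 of the 22, with lowest adjusted p-values of 0.126 and 0.224. Of all rows, 1.88% fell by DESeq2. Summed counts of the list were 17748, 6885 and 9601 in WT and 6128, 5853 and 5289 in DKO. The members that fell were the chemokine gene Cxcl9 (-4.14, adjusted p = 5.20e-06), the GTPase genes Iigp1 (-3.00), Ifi47 (-2.46), Tgtp1 (-2.50), Tgtp2 (-2.31) and Irgm2 (-2.23), and the guanylate-binding protein genes Gbp3 (-1.84), Gbp4 (-1.93) and Gbp5 (-2.26), all as log2 fold changes. Cxcl9 had 142, 14.7 and 62.7 in WT and 4.74, 4.18 and 3.46 in DKO, and it and Ifi47 were called in each fit that left out a library. WT 1 was the highest WT library at both. Jak1, a kinase of the receptor and the member with the highest normalized count, had 2287, 2400 and 2365 in WT and 2349, 2273 and 2037 in DKO, at -0.08 ± 0.10 (SE, adjusted p = 0.832). Without DKO 4, 2 members fell, without DKO 5 3, without DKO 1 or WT 5 6, without WT 1 9 and without WT 4 18. Ifng itself had at most 2.69 normalized counts in any library.

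Some markers of immune cells were also called lower by DESeq2, where 1.88% of all rows fell, and edgeR and limma-voom called 0 in each of these lists. In bulk tissue, fewer cells of a type and less RNA per cell cannot be told apart. Summed normalized counts of 7 B cell markers were 194, 28.4 and 40.3 in WT and 13.3, 10.45 and 21.9 in DKO. Of 6 tested, 1 fell (Ms4a1), at 0 in DKO 1. Of 10 T and NK cell markers 5 fell, and Cd8a was at 0 in all DKO libraries. Their sums were 374, 98.8 and 216 in WT and 73.1, 58.5 and 38.1 in DKO. For macrophages 4 of 9 fell, with sums of 2266 to 3515 and 1558 to 2193. Pan-leukocyte genes fell for 2 of 4, with 1091 to 2479 and 582 to 990.

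Dendritic cell markers fell for 0 of 9 by DESeq2, and their sums of 369 to 656 in WT and 213 to 391 in DKO overlapped. At an unadjusted p under 0.05, 5 were lower, and without DKO 1, 2 of them fell. Of 6 plasma cell markers, 0 fell by DESeq2, 0 also at an unadjusted p under 0.05, and 1 rose, Derl3. This call was lost without WT 5 (adjusted p = 0.117), WT 1 (0.111), DKO 5 (0.0975) or DKO 4 (0.0572). The estimates were negative for 3 of the 6, Jchain, Mzb1 (-1.16) and Tnfrsf17 (-1.06), and the median log2 fold change was -0.45. Jchain had 1616, 738 and 1258 in WT and 1009, 625 and 173 in DKO. Derl3 had 2110 to 3337 normalized counts over all libraries, and Mzb1 had 5.765 to 40.57. Which cells these reads came from was not tested. Without DKO 4 the numbers that fell were 0 for B cell, 1 for T and NK cell, 1 for macrophage and 0 for pan-leukocyte markers, and without WT 4 they were 2, 6, 6 and 4. Without WT 5 they were 0, 1, 0 and 0, without WT 1 0, 1, 1 and 1, without DKO 5 0, 1, 1 and 0, and without DKO 1 0, 3, 4 and 3. Without WT 1, only 3 B cell markers had enough counts to be tested, against 6 in the whole set. The part of these cells in the lower MHC counts was not tested.

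**Figure D4:**
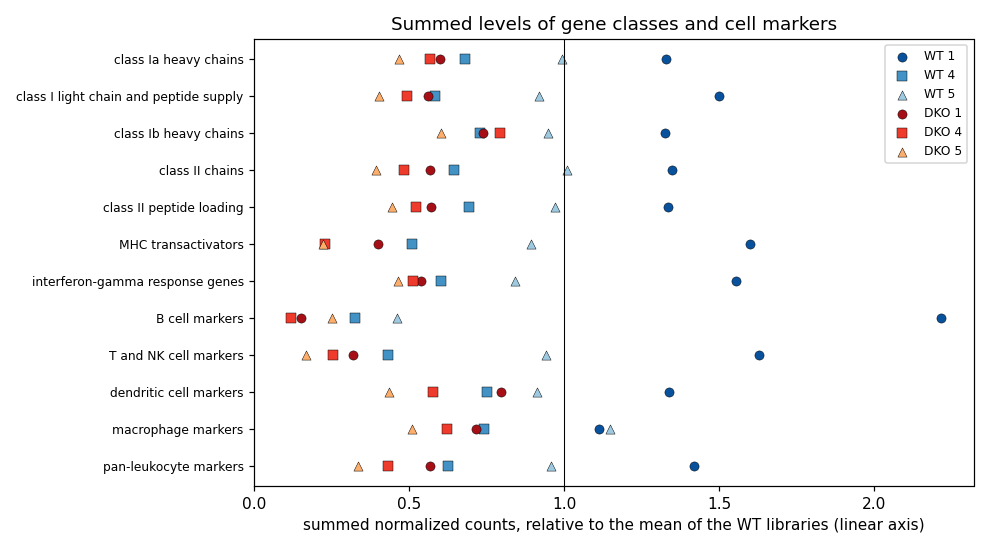
Summed normalized counts of 6 MHC gene classes and 6 lists of interferon-gamma response or cell markers in each library, divided by the mean of the WT libraries (linear axis from 0). WT 1 lies highest and WT 4 lowest among WT for the MHC classes, and at class Ib genes the DKO libraries reach into the WT range.

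Position on chromosome 17 was not used to choose the genes. From the first to the last H2- row (chr17:33974659-37483552, 3.51 Mb), 33 of the genes and 111 other rows were tested. Among the 33, 10 fell, 0 rose, the median log2 fold change was -1.35 and 17 (51.5%) had no overlap with DKO lower. The 33 include the 6 genes that entered only through WT. Of these, Gm8909 and Gm10499 are among the 10, and both are among the 17 with H2-M2 and H2-Q10. The neighbours needed only 10 counts over the 6 libraries, so the 2 sets were not chosen alike and their contrast is partly set by the choice. Among the 111 neighbours, 2 fell, 2 rose, the median was -0.02 and 12 (10.8%) had no overlap with DKO lower, close to the 10.502% of all rows. Neighbours with every DKO library above every WT library, such as Ring1 and Rnf5, are not in this count. The neighbours that fell were Ltb, encoding lymphotoxin beta, with 67.3, 20.5 and 35.8 in WT and 8.54, 7.32 and 5.76 in DKO, and the complement gene C4b, with 475, 241 and 460.4 in WT and 279, 191 and 198 in DKO, and those that rose were Slc39a7 and Vars. With single libraries left out, called members in the interval numbered 0 (without DKO 4), 4 (without WT 1 or WT 5), 7 (without DKO 1 or DKO 5) and 18 (without WT 4), while neighbours that fell numbered 0 (without WT 1) to 4 (without DKO 1), and the 2 that rose became 1 without WT 4 and 0 without DKO 1, DKO 4, WT 1 or WT 5.

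The spread within each group was wide at the MHC genes, in WT as in DKO. Of rows with a mean of at least 50 normalized counts, 7 of 20 members in the interval had more than 1 log2 unit between the highest and lowest DKO library, against 0 of 63 neighbours and 3.04% of 11489 rows in the whole table. Among WT libraries 13 of the 20 members did, against 1 of 63 neighbours and 3.39% of all rows. H2-T24 spanned 2.74 and H2-T10 2.72 log2 units among DKO libraries, where the median row spanned 0.29, and 0.45 and 0.63 among WT libraries, where the median row spanned 0.21. Among DKO libraries, 0.418% of rows spanned more than H2-T24 and 0.427% more than H2-T10. DKO 5 was the lowest DKO library for 21 of the 39 genes and the highest for 11, so it was not lower or higher throughout.

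**Figure D5:**
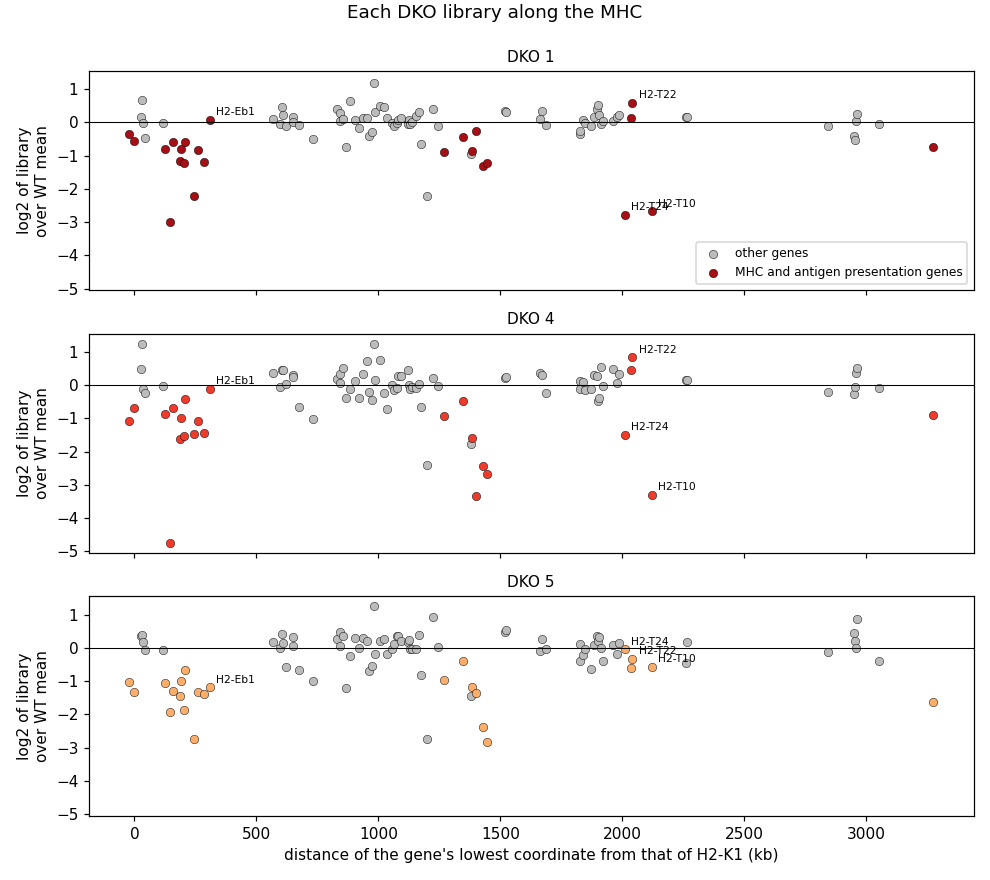
Log2 of each DKO library over the WT mean (0.5 added to both) for rows in the MHC interval with a mean of at least 20 normalized counts, against the distance along chromosome 17 from H2-K1 in kb. Members (coloured) lie mostly below 0 among neighbours (grey) near 0, and H2-T24 and H2-T10 are far below 0 in DKO 1 and DKO 4 and nearer to it in DKO 5.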

How the data were processed

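RNA from female SMGs was made into unstranded Nextera XT libraries by the authors and sequenced on a HiSeq2500, as 3 WT and 3 DKO libraries. The submitters' processing notes name STAR 2.5.2a, DESeq2, edgeR and limma and the builds GRCm38, mm10 and GRCh38 without their roles. The counting tool and annotation are not given in the sources used here. The deposited files hold raw, unnormalized counts for each symbol, once for all 43280 rows and once after a filter, and the filter was checked to keep every row whose count exceeds 5 in any library. A deposited table of normalized values was not used. Each library was counted as 1 replicate. The labels do not say how the glands were collected, so p-values measure the spread between these samples.

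Rows with at least 10 counts over the 6 libraries (18606) were fitted with DESeq2 1.42.0 in R 4.3.3, by its Wald test (two-sided), with size factors from median ratios and fold changes on the log2 scale without shrinkage. Cook's and independent filters were at their defaults, and the Benjamini-Hochberg adjustment covered the rows that passed them. With 3 libraries against 3, an exact permutation test of 1 value cannot give a two-sided p below 0.1. The members and gene lists were chosen with earlier results of these data known, and H2-K2 was moved out of its list because it is a pseudogene. Values in every library are given for called members, the main class I, class II, peptide supply and transactivator genes, and class Ib genes with a mean of at least 50. Of other lists, called genes and the most abundant member are named. Rfx5, Ifng, Cd8a, Jchain, Mzb1, Tnfrsf17, H2-DMa, H2-DMb1, H2-Oa and the ratios within libraries were chosen after values were seen. Alternatives were edgeR 4.0.16 (quasi-likelihood), limma-voom (limma 3.58.1), size factors from TMM or total counts, all rows without a minimum, a minimum of 10 counts in 3 libraries, the filtered counts, no independent or Cook's filter, a replicate block, and each library left out. The fits were tested on simulated data. Coordinates are from GENCODE M21 (GRCm38), matched by symbol for 91.2% of rows and all 39 members. Unique stretches are 50-base windows of a gene's GENCODE transcripts absent from all other genes. Replicate numbers 1, 4 and 5 are shared by the groups but mark no stated litter or day. One gene of the B cell list is not reported here and was left out of its sums and counts.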

Additional observations from a re-analysis of the deposited data

How the results depend on the processing

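The number of genes called in the whole table, 539, was 10 with edgeR's quasi-likelihood test, 7 with limma-voom, 1472 with total counts as size factors and 149 to 817 with 1 library left out. The 14 members called lower became 0 with edgeR, 0 with limma-voom, 22 with total counts and 1 to 24 with 1 library left out. The number called higher was 0 to 1 in those last fits. The causes were not tested. Total counts moved the median of all rows by -0.23, and H2-T23 then had -0.20. With 1 library left out H2-T23 ranged from -0.18 to 0.36. The class Ib median of -1.65 was -1.20 with at least 10 counts in 3 libraries, which leaves out the rarest of these genes.

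Of the 29 members with values in every library, all kept direction and call with TMM factors, without the count filter, with the filtered counts and without Cook's filter, 28 without independent filtering and 27 with at least 10 counts in 3 libraries. With total counts 22 were alike, 5 gained the call, 1 lost it and 1 changed sign, and with edgeR or limma-voom all 14 calls were lost. With the replicate block, 343 genes were called in the whole table and 14 members fell, 4 of the 29 losing and 4 gaining the call. Deviations of libraries with the same number did not go together (r = -0.133, -0.0244 and -0.259 over 11489 rows), so the numbers were not taken as pairs. Between libraries of different numbers r ran from -0.39 (WT 4 and DKO 1) to 0.446 (WT 5 and DKO 1), with 0.444 for WT 4 and DKO 5. What such libraries share was not tested. Depth limited H2-Bl, Gm8909, Gm10499, H2-Ea-ps and the other genes with few counts, whose fold changes rest on single reads in DKO.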
